A study of Mus musculus with 9 samples.

Results

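The 39 genes described here encode proteins of G2 phase and mitosis, from cyclin B1 and CDK1 to kinesins, kinetochore proteins and the proliferation marker Ki-67. They were selected by gene symbol, and all 39 were present among the 15109 genes of the deposited count and log2 tables. Polyadenylated RNA came from bone marrow-derived mast cells, which are mast cells grown in culture from marrow progenitors, of wild-type C57BL/6 mice. All groups were grown for at least 4 weeks in medium containing 20% serum and 30% supernatant of WEHI-3 cells, which secrete the mast cell growth factor IL-3. The Control group (3 libraries) was untreated. The BSA group (3 libraries) was sensitised with IgE against dinitrophenyl (DNP) and stimulated with DNP-BSA, the antigen that crosslinks this IgE on its receptor. The Taxinine group (3 libraries) received the same IgE and antigen, with taxinine, a taxane diterpenoid of yew, given for 1 h before the antigen. The labels name no taxinine dose, no length of antigen exposure and no vehicle, and no group had taxinine alone. Replicates are described as biological, but no source tells whether mice or cultures differed between them, so the p-values cover library-to-library spread that may be technical.

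Cells enter mitosis when cyclin A2 and the B-type cyclins activate CDK1, and they leave it when the anaphase-promoting complex marks the cyclins and many spindle proteins for destruction. Between these steps Polo-like and Aurora kinases, motor proteins and the kinetochore build the spindle and attach chromosomes to it, and the checkpoint kinases delay anaphase until attachment is complete. Transcription of most of these genes is held low in G1 and peaks in G2 and mitosis. This pattern depends on the CHR element (cell cycle genes homology region), which binds the MuvB complexes, and on CCAAT boxes, which bind NF-Y. In an unsorted culture their transcripts therefore reflect how many cells are in or near mitosis as well as how much each cell makes.

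Promoter sequences were shown because these elements are what is known to control the genes together. RefSeq promoters of build GRCm38.p6, running from 250 bases before to 50 after the start site, matched 34 of the 39 genes by symbol, with 36 promoters in all, and held no entry for Aurkb, Kif20a, Dlgap5, Ccna2 and Tpx2. A CHR element, searched as TTTGAA or TTCGAA on both strands, was present in 30 of the 36 promoters (83.3%), against 19.2% of all 32851 promoters of the same length. A CCAAT box, searched as CCAAT on both strands, was present in 28 of the 36 (77.8%), against 37.4% of all promoters. The motifs were searched separately, and a match of one may share letters with a match of the other. Both were present in 26 promoters (72.2%), against 7.52% overall. Where a CHR was found, the match nearest the start site lay within 50 bases of it in 28 of 30 promoters (93.3%), against 28.2% of all promoters that hold one. The 5 genes whose CHR lay nearest the start site are printed 5′ to 3′ on the coding strand, from 150 bases before to 30 after the start site, with every CHR and CCAAT match of either strand in capitals (ATTGG is CCAAT read from the other strand). Prc1 is at chr7:80294301-80294480 (plus strand), Cenpf at chr1:189688057-189688236, Kif23 at chr9:61946770-61946949, Ccnb2 at chr9:70421525-70421704 and Racgap1 at chr15:99651627-99651806 (minus strand for these 4).
Prc1: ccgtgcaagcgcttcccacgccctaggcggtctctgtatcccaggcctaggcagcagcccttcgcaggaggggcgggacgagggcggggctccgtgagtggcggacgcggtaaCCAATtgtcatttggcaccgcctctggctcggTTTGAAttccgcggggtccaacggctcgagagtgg
Cenpf: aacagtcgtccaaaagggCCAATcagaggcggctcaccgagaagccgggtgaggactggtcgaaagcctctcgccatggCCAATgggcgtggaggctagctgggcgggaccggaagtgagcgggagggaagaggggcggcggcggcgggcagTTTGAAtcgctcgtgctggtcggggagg
Kif23: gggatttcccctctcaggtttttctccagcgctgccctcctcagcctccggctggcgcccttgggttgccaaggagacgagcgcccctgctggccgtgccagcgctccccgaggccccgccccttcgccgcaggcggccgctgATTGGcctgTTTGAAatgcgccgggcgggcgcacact
Ccnb2: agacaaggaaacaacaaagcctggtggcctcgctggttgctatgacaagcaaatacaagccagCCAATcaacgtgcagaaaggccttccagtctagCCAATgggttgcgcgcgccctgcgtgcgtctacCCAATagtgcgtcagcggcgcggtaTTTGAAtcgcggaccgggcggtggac
Racgap1: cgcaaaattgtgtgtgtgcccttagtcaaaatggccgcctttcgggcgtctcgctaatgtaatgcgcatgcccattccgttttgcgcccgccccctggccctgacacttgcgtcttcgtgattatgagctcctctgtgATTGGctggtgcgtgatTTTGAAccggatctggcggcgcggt
The centre of the CHR lay 3 bases before the start site in Prc1, and 5, 5, 7 and 8 bases after it in Cenpf, Kif23, Ccnb2 and Racgap1. In the 26 promoters with both motifs the median distance between the nearest pair was 27 bases. A match is a description of the letters and not evidence that a factor binds. A CHR was found in 10 of the 12 matched genes called higher after antigen, as described further on, and in 18 of the 22 others, so most genes of either kind held it.

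**Figure D1:**
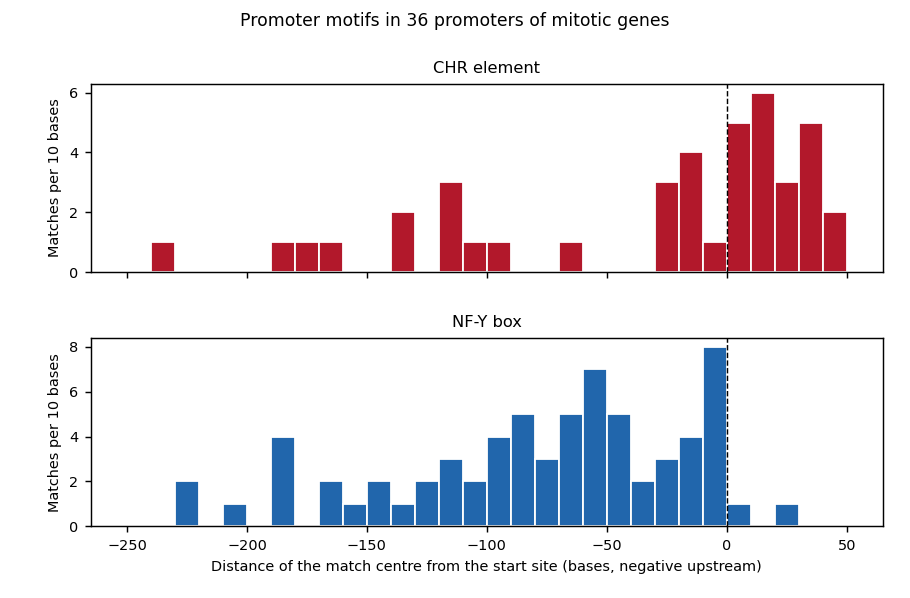
Positions of motif matches in the 36 promoters, with the distance of the match centre from the start site in bases on the x axis and the number of matches per 10 bases on the y axis, the CHR element above and the NF-Y box below. CHR matches gather within 50 bases of the start site, where 28 of the 30 promoters with the element hold their nearest match, while NF-Y boxes lie mostly upstream.

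Total counts per library ranged from 8975371 to 14116976. Each mitotic gene had between 170 and 6681 counts in a library, the fewest for Plk1 and the most for Mki67. Levels are given as CPM, which are counts per 1000000 after edgeR's TMM factors have adjusted each library total, and differences as log2 fold changes ± SE on the same scale. Mean levels per kilobase of exon ranged from 4.06 CPM for Cenpf to 48.5 CPM for Top2a, with a median of 11.6 CPM. Top2a (topoisomerase II alpha, which untangles sister chromatids) and Mki67 (Ki-67, which coats mitotic chromosomes and keeps them apart, 44.99 CPM per kilobase) stood at the top, followed by Ccnb2 (34.0). The lowest after Cenpf were Ttk (4.31) and Aspm (4.76). Exon length here is the union over annotated isoforms, so the order between genes with close values is uncertain.

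The cells carried their defining markers. Summed CPM of 14 measured mast cell markers ranged from 56453 to 58093 across the Control libraries, from 61927 to 64294 for BSA and from 61886 to 63295 for Taxinine, with Kit at 3748 ± 122 CPM and Cpa3 at 16932 ± 287 CPM in Control (SD, n = 3). After antigen 7 of the 14 (50%) were called higher and 1 (7.14%) lower at an adjusted p under 0.05, against 16.2% and 17.8% of all genes. With plain library totals 3 were higher and 10 lower. The 1 was Ms4a2, at -0.35 ± 0.04 (edgeR adjusted p = 4.13e-10). In Taxinine against BSA 0 were higher and 2 (14.3%) lower, against 2.86% and 4.12% of all genes. These were Gata2 at -0.16 ± 0.04 and Mitf at -0.19 ± 0.06. Of 8 lists of markers of other marrow cells, 4 were near 0. The 1 measured neutrophil marker of 9 listed, the 3 measured erythroid markers of 6, the 2 B cell markers of 5 and the 2 T cell markers of 5 summed to at most 0.946, 5.73, 2.28 and 0.909 CPM in any library, and the other markers of these 4 lists are not listed in the table. The 4 basophil markers summed to between 1289 and 1341 CPM in the Control and BSA libraries and to between 1200 and 1216 CPM in the Taxinine libraries. Most of this sum came from Cd200r3 and Prss34, which did not pass in Taxinine against BSA (edgeR adjusted p = 0.190 and 0.0811). Mcpt8 was lower there, at -0.35 ± 0.06 (edgeR adjusted p = 5.57e-05), and did not pass in Taxinine against Control (-0.11 ± 0.06). The 9 macrophage or monocyte markers summed to between 180 and 197 CPM in the Control and BSA libraries and to between 136 and 142 CPM in the Taxinine libraries. Among these Ccr2 had means of 112, 88.2 and 57.0 CPM for Control, BSA and Taxinine, Adgre1 had 44.2, 49.8 and 47.5, and Lyz2 had 14.6, 21.8 and 15.0. Csf1r had group means from 0.758 to 1.018 CPM. Ccr2 and Lyz2 were lower in Taxinine than in BSA, at -0.63 ± 0.06 and -0.52 ± 0.10 (edgeR adjusted p = 1.30e-10 and 2.18e-04). The 4 stem or progenitor cell markers measured of 5 summed to between 1271 and 1399 CPM. The 4 megakaryocyte markers summed to between 1599 and 1768 CPM, nearly all from Itga2b, while Pf4 had at most a group mean of 1.47 CPM. The part of the basophil and macrophage marker differences in the mitotic genes was not tested.

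**Figure D2:**
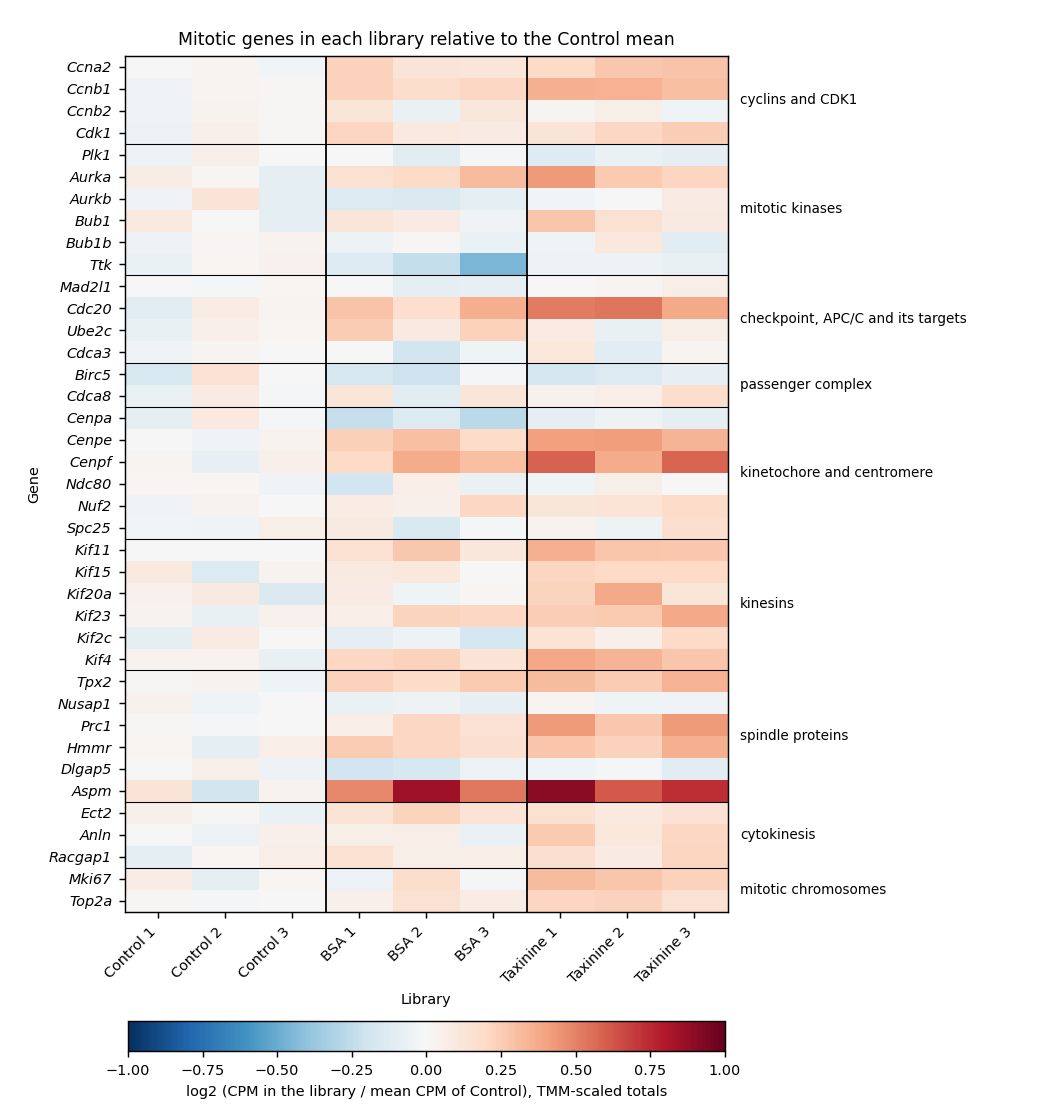
Colour gives the log2 ratio of each mitotic gene's CPM (rows, ordered by role) in each library (columns) to the mean of the 3 Control libraries, with TMM-scaled totals. Aspm, Cenpf, Cdc20 and Cenpe are higher in all 6 stimulated libraries, Ttk and Cenpa are lower in the 3 BSA libraries, and most rows differ by little, while with plain library totals every BSA and Taxinine column shifts towards lower values.

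After antigen alone, 14 of the 39 mitotic genes were called higher than in Control and 2 lower on the TMM scale (edgeR quasi-likelihood test, adjusted p under 0.05), whereas with plain library totals 1 was called higher and 22 lower. The changes were small: 38 of the 39 lay between 0.834-fold and 1.22-fold, and the median log2 change of the 39 was 0.07 beside -0.00 for all genes. Among all genes 16.2% were called higher and 17.8% lower. Among the 6224 genes with a mean level within the range of the mitotic genes, 26.1% were called higher and 20.0% lower. The mitotic genes called higher thus made up 35.9% of the 39 and those called lower 5.13%. With plain totals the corresponding shares of all genes were 7.15% higher and 45.6% lower, and the median of all genes moved to -0.23 and that of the mitotic genes to -0.16. The mitotic median lay 0.07 above the median gene under both scalings. Rescaling moves all genes by nearly the same amount, so this distance could hardly differ between them. The changes described for single genes are on the TMM scale, relative to the median gene. In these bulk samples fewer cells of a type and less RNA per cell cannot be told apart.

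**Figure D3:**
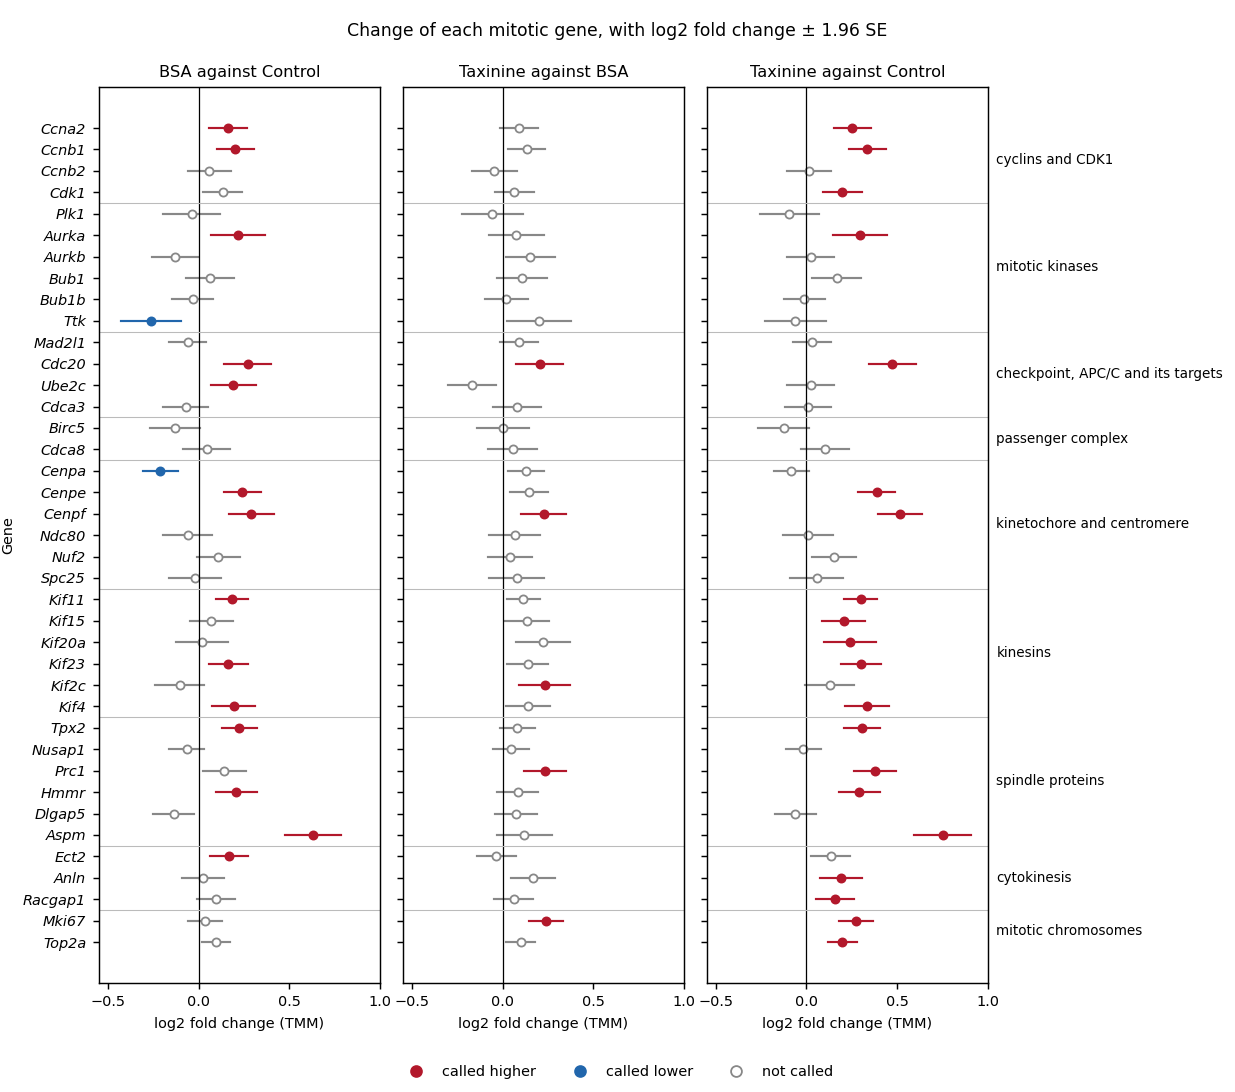
Log2 fold change of each mitotic gene (points) in the 3 comparisons, on the TMM scale. Colour tells whether the gene was called higher, called lower or not called. Bars give an approximate 95% interval from the SE. After antigen 14 genes are called higher and 2 lower, in Taxinine against BSA 5 are called higher, and in Taxinine against Control 20 are called higher, while with plain library totals 1, 9 and 6 are called higher and 22, 0 and 13 lower.

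Spindle proteins held the largest change. Aspm, the spindle pole protein that organises microtubule minus ends (chr1:139454772-139494091, GRCm38), had 42.7, 34.4 and 40.1 CPM in the Control libraries. It reached 54.4, 70.4 and 56.4 CPM in the BSA libraries, and 73.0, 59.7 and 65.0 CPM in the Taxinine libraries. Every stimulated library was above every Control library, while BSA and Taxinine overlapped. Aspm rose by 0.63 ± 0.08 in log2 after antigen (edgeR adjusted p = 1.09e-08, all 9 libraries in the fit) and was the 1 mitotic gene still called higher with plain totals, at 0.40. Tpx2, which targets Aurora A to the spindle, had 93.3, 94.5 and 89.6 CPM in Control and 109, 105 and 111 in BSA. These groups did not overlap, and Tpx2 rose by 0.22 ± 0.05 (edgeR adjusted p = 3.02e-04). Hmmr, a microtubule-binding spindle protein, had 57.6, 53.4 and 59.4 CPM in Control and 67.7, 65.5 and 63.4 in BSA, again without overlap, a rise of 0.21 ± 0.06 (edgeR adjusted p = 0.00361). With plain totals Tpx2 and Hmmr stood at -0.0033 and -0.02. Prc1, the crosslinker of the central spindle, and the microtubule-binding proteins Nusap1 and Dlgap5 did not pass, at 0.14, -0.07 and -0.14.

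Kinetochore and centromere genes moved in both directions. Cenpf, a large protein of the outer kinetochore, had 52.6, 48.6 and 53.3 CPM in Control and 59.0, 66.4 and 63.6 in BSA. Cenpe, the kinesin that carries chromosomes to the spindle equator, had 76.8, 74.4 and 78.2 CPM in Control and 90.0, 94.2 and 86.8 in BSA. In both genes the groups did not overlap, with rises of 0.29 ± 0.06 for Cenpf and 0.24 ± 0.05 for Cenpe (edgeR adjusted p = 2.13e-04 and 2.17e-04). With plain totals they stood at 0.06 and 0.01. Cenpa, the histone H3 variant that marks centromeres, had 137, 156 and 144 CPM in Control and 124, 133 and 121 in BSA. It fell by 0.21 ± 0.05 without overlap (edgeR adjusted p = 7.29e-04), and by 0.44 with plain totals. The NDC80 complex subunits, which bind microtubules, did not pass: Ndc80, Nuf2 and Spc25 had log2 changes of -0.06, 0.11 and -0.02.

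Of the 4 cyclin and CDK1 genes, 2 were called higher. Ccnb1, which encodes cyclin B1, had 67.7, 70.6 and 69.8 CPM in Control. The BSA libraries had 81.2, 78.3 and 79.9 CPM, and the Taxinine libraries 88.8, 88.5 and 85.7 CPM. The 3 groups did not overlap, though Taxinine against BSA missed the threshold at 0.13 ± 0.05 (edgeR adjusted p = 0.127). After antigen Ccnb1 rose by 0.20 ± 0.05 (edgeR adjusted p = 0.00172), and with plain totals it stood at -0.03. Ccna2, encoding cyclin A2, rose by 0.16 ± 0.05 (edgeR adjusted p = 0.0131). Its partner kinase gene Cdk1 had 68.5, 74.0 and 71.9 CPM in Control and 82.7, 76.4 and 75.8 in BSA, which did not overlap, yet the change of 0.13 ± 0.05 missed the threshold (edgeR adjusted p = 0.0542). Ccnb2, the gene of the other common B-type cyclin, changed by 0.06 ± 0.06, and was not called. Whether the changes of Ccnb1 and Ccnb2 differ was not tested.

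Of 6 mitotic kinase genes, 1 rose and 1 fell. Aurka, encoding the centrosomal Aurora A, rose from 25.9 ± 1.58 to 30.3 ± 1.88 CPM (SD, n = 3), a log2 change of 0.22 ± 0.08 (edgeR adjusted p = 0.0214). Ttk, encoding the checkpoint kinase MPS1, had 21.7, 23.1 and 23.5 CPM in Control and 20.9, 19.3 and 16.6 in BSA, and fell by 0.26 ± 0.08 (edgeR adjusted p = 0.0137). The Ttk groups did not overlap, with BSA replicate 3 lowest. Plk1, the Polo-like kinase of mitotic entry, had 20.8, 22.4 and 21.5 CPM in Control and 21.6, 20.0 and 21.4 in BSA. Aurkb, the catalytic subunit of the chromosomal passenger complex, had 43.0, 48.3 and 41.2 CPM in Control and 40.2, 39.95 and 41.2 in BSA. Neither passed, at -0.04 ± 0.08 and -0.13 ± 0.07. The checkpoint kinase genes Bub1 and Bub1b stood at 0.06 and -0.03. Birc5 (survivin) and Cdca8 (borealin), further subunits of that complex, also missed the threshold. Birc5 stood at -0.13 ± 0.07, with 39.8, 48.9 and 44.0 CPM in Control against 39.6, 38.2 and 43.7 in BSA, and Cdca8 at 0.04 ± 0.07.

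Among genes of the anaphase-promoting complex pathway, its activator Cdc20 had 37.8, 42.7 and 41.4 CPM in Control and 49.4, 45.6 and 52.2 in BSA. Its ubiquitin-conjugating enzyme Ube2c had 39, 42.6 and 41.5 CPM in Control and 49.0, 43.7 and 48.02 in BSA. Both pairs of groups were separate, and the rises were 0.27 ± 0.07 for Cdc20 and 0.19 ± 0.06 for Ube2c (edgeR adjusted p = 9.48e-04 and 0.0170). With plain totals they stood at 0.04 and -0.04. Mad2l1, the checkpoint protein that inhibits CDC20, and Cdca3, a substrate that promotes mitotic entry, did not pass, at -0.06 and -0.07. Cdc20 overlaps Elovl1 on the opposite strand; the sources used here do not state the strand setting of the counting, and Elovl1 itself rose by 0.13 ± 0.05 (edgeR adjusted p = 0.0416).

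Kinesin genes were called higher in 3 of 6 cases. Kif11, the motor that pushes spindle poles apart, had 174, 176 and 174 CPM in Control and 194, 211 and 189 in BSA. It rose by 0.18 ± 0.05 (edgeR adjusted p = 0.00124), with separate groups, and stood at -0.04 with plain totals. The chromokinesin Kif4 and the central spindle motor Kif23 rose by 0.19 ± 0.06 and 0.16 ± 0.06 (edgeR adjusted p = 0.0120 and 0.0191). Kif15, Kif20a and the microtubule depolymerase Kif2c did not pass, at 0.07, 0.02 and -0.11. Of 3 cytokinesis genes, Ect2, the exchange factor that activates RhoA at the cleavage furrow, rose. It had 74.4, 72.4 and 68.7 CPM in Control and 79.1, 83.7 and 79.1 in BSA, a log2 change of 0.17 ± 0.05 (edgeR adjusted p = 0.0112), while Anln and Racgap1 stood at 0.02 and 0.09. The 2 genes with the highest levels did not pass. Mki67 had 442, 392 and 426 CPM in Control and 404, 473 and 414 in BSA, which overlapped. Top2a had 412, 403 and 408 CPM in Control and 423, 454 and 430 in BSA, which did not overlap, with a log2 change of 0.10 ± 0.04 (edgeR adjusted p = 0.0637).

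Of the 16 calls after antigen, 9 held in each of the 9 fits that left out 1 library: those of Ccnb1, Cdc20, Cenpa, Cenpe, Cenpf, Kif11, Tpx2, Hmmr and Aspm. The other 7, of Ccna2, Aurka, Ttk, Ube2c, Kif23, Kif4 and Ect2, were lost in 2 or 3 of those fits. The fewest calls came without Control replicate 3, with 10 genes higher and 1 lower.

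Taxinine against BSA compares antigen given after taxinine with antigen alone. Without a group given taxinine alone, a changed response to antigen cannot be told apart from an effect of taxinine or its vehicle. The largest difference among the mitotic genes was that of Mki67, 1.18-fold higher in Taxinine. On the TMM scale 5 mitotic genes were called higher and 0 lower, against 2.86% and 4.12% of all genes, and 4.79% and 7.21% of genes in the same range of levels. The median log2 difference of the 39 was 0.09, beside 0.00 for all genes, and 35 of the 39 differences were above 0. With plain totals 9 were called higher and 0 lower, where 4.28% of all genes were higher and 3.15% lower. The count rested on single libraries: without BSA replicate 1, or without Taxinine replicate 1, which has the fewest counts, 1 gene was called higher, and without Control replicate 3 or Taxinine replicate 3, 3 were. At an unadjusted p under 0.05, 18 of the 39 differed, of which Ube2c was lower, against 19.8% of all genes and 29.2% of genes in the same range of levels in either direction.

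Of these 5 calls, that of Mki67 alone held in all 9 fits with a library left out. Mki67 (chr7:135689784-135716361) had 404, 473 and 414 CPM in BSA and 523, 509 and 492 in Taxinine. All Taxinine libraries were above all BSA libraries, and the difference was 0.24 ± 0.05 (edgeR adjusted p = 7.92e-04). Prc1 had 53.6, 59.3 and 56.7 CPM in BSA and 69.0, 61.8 and 68.7 in Taxinine, a difference of 0.23 ± 0.06 (edgeR adjusted p = 0.00967). Cenpf had 66.5 to 77.4 CPM in Taxinine, narrowly above the 59.0 to 66.4 of BSA, a difference of 0.23 ± 0.06 (edgeR adjusted p = 0.0178). Kif2c had 31.0 to 33.8 CPM in BSA and 36.3 to 40.04 in Taxinine, at 0.23 ± 0.07 (edgeR adjusted p = 0.0377). Kif2c was not called against Control in either stimulated group. Cdc20 had 58.2, 58.8 and 53.0 CPM in Taxinine, at 0.20 ± 0.07 (edgeR adjusted p = 0.0498), close to the threshold. In each of the 5 genes every Taxinine library was above every BSA library, which is likely for genes picked by their call in this comparison. Genes that were not called, such as Ccnb1, Aurkb and Kif23, were separate too. The share of all genes with separate groups was not counted, here or in the other comparisons. Elovl1, the opposite-strand neighbour of Cdc20, differed by -0.04 ± 0.05. Prc1 overlaps Rccd1, which differed by 0.06 ± 0.12.

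The other genes did not pass in this comparison. All 6 kinesin genes had positive differences between 0.11 and 0.23, Kif20a being the nearest to the threshold after Kif2c at 0.22 ± 0.08 (edgeR adjusted p = 0.0648). The lowest difference was that of Ube2c, with 43.4, 39.1 and 42.7 CPM in Taxinine, all below the 43.7 to 49.0 of BSA, at -0.17 ± 0.07 (edgeR adjusted p = 0.132). Ttk and Cenpa, which fell after antigen, had 21.99, 21.96 and 21.6 CPM and 136, 140.4 and 136 CPM in Taxinine, above their BSA values, but at 0.20 ± 0.09 and 0.13 ± 0.05 neither passed (edgeR adjusted p = 0.200 and 0.134). Plk1 had 19.7, 20.6 and 20.2 CPM in Taxinine, at -0.06 ± 0.09. Aurkb had 43.3, 44.4 and 46.7, all above its BSA libraries, at 0.15 ± 0.07 (edgeR adjusted p = 0.193). Across the 39 genes the distance from the estimate to either end of the approximate 95% interval was between 0.08 and 0.18 in log2.

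Taxinine against Control shares the Control libraries with the first comparison and the Taxinine libraries with the second, so its values are not separate evidence. Here 20 mitotic genes were called higher (51.3%) and 0 lower, against 15.9% and 17.2% of all genes and 26.3% and 19.8% of genes in the same range of levels. With plain totals 6 were called higher and 13 lower, where 7.31% of all genes were higher and 41.6% lower. The median log2 change of the 39 was 0.17 beside -0.01 for all genes on the TMM scale, and -0.03 beside -0.21 with plain totals. The 6 genes called higher under both scalings were Ccnb1, Cdc20, Cenpe, Cenpf, Prc1 and Aspm.

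Aspm again showed the largest change, 0.75 ± 0.08 (edgeR adjusted p = 1.77e-10), a 1.68-fold rise with separate groups. Cenpf followed at 0.52 ± 0.06 and Cdc20 at 0.47 ± 0.07 (edgeR adjusted p = 4.91e-09 and 1.14e-07). Cenpe, with 101.7, 102.1 and 96.6 CPM in Taxinine, rose by 0.39 ± 0.05, and Prc1 by 0.38 ± 0.06 (edgeR adjusted p = 6.57e-08 and 1.66e-06). Ccnb1 rose by 0.34 ± 0.05 and Cdk1, with 78.3, 82.5 and 84.6 CPM in Taxinine, by 0.20 ± 0.05 (edgeR adjusted p = 1.29e-06 and 0.00395). These 7 genes, which are not the 7 with the largest rises, span spindle, kinetochore, checkpoint and cyclin roles. Kif4 and Kif23 rose by 0.33 ± 0.06 and 0.30 ± 0.06, more than Cdk1. Tpx2 (115, 110.1 and 118 CPM), Kif11 (223, 212 and 210.3 CPM) and Hmmr (68.7, 66.5 and 72.7 CPM) rose by 0.31 ± 0.05, 0.30 ± 0.05 and 0.29 ± 0.06. Of the 6 kinesin genes 5 were called, Kif2c being the exception. The rises of Kif15, another motor that keeps poles apart, and Kif20a, a motor of cytokinesis, were 0.20 ± 0.06 and 0.24 ± 0.07 (edgeR adjusted p = 0.00769 and 0.00839). Anln (anillin) and Racgap1, both of the cleavage furrow and central spindle machinery, rose by 0.19 ± 0.06 and 0.15 ± 0.05, and stood at -0.01 and -0.05 with plain totals. Mki67 rose by 0.27 ± 0.05 and Top2a, with 474, 477 and 452 CPM, by 0.20 ± 0.04 (edgeR adjusted p = 1.15e-05 and 1.38e-04). With plain totals Mki67, Top2a and Cdk1 stood at 0.07, -0.0042 and -0.0033, and none of these passed. Ccna2 and Aurka were called higher too, at 0.25 ± 0.05 and 0.29 ± 0.08 (edgeR adjusted p = 1.67e-04 and 0.00228). With plain totals Ccna2 and Aurka stood at 0.05 and 0.09 and did not pass.

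The remaining 19 mitotic genes did not pass against Control in Taxinine. The lowest change in Taxinine was that of Birc5, with 39.3, 40.2 and 41.8 CPM, at -0.13 ± 0.07, and Plk1 stood at -0.09 ± 0.08. Ccnb2, Aurkb, Bub1b, Mad2l1, Cdca3, Ndc80 and Nusap1 lay between -0.02 and 0.03 in log2. Ube2c (0.02) and Ect2 (0.13, with 79.7, 77.0 and 79.6 CPM) were called after antigen alone and not in Taxinine; the difference between the stimulated groups did not pass for either gene. Of the 20 calls, 16 held in each of the 9 fits with a library left out, the exceptions being Kif15, Kif20a, Anln and Racgap1.

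Summed over the 39 genes, CPM on the TMM scale ranged from 3010 to 3029 in Control, 3151 to 3270 in BSA and 3440 to 3513 in Taxinine, so the 3 groups did not overlap. With plain totals the sums were 3332 to 3342 in Control, 2966 to 3097 in BSA and 3292 to 3383 in Taxinine. BSA was then the lowest group, and Control and Taxinine overlapped. As a description across genes, Spearman's rho between exon length and log2 change over the 39 genes was 0.19 for BSA against Control, 0.43 for Taxinine against BSA and 0.39 for Taxinine against Control. Over 6224 genes in the same range of levels it was 0.01, 0.26 and 0.15. These are descriptions across genes that share the same libraries, and the part of length in the differences was not tested.

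**Figure D4:**
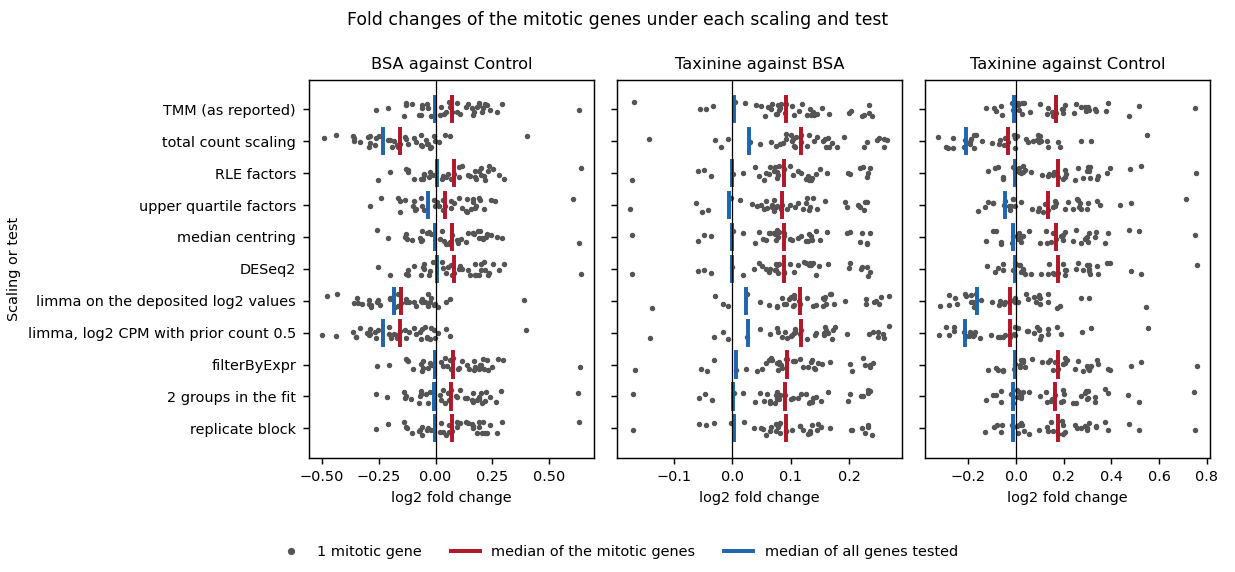
Log2 fold changes of the mitotic genes (points) in each comparison under each scaling or test (rows), with red bars at their median and blue bars at the median of all genes tested. With total count scaling and with limma, which uses plain totals here, both medians of BSA against Control and Taxinine against Control shift to lower values, the mitotic median to -0.16 and -0.03 with total counts, while in Taxinine against BSA it stays between 0.08 and 0.12.

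Other genes of the same machinery were called in both directions after antigen, on the TMM scale less often than genes in general. Of 86 further G2/M and mitosis genes, 9 were called higher and 9 lower, with a median log2 change of 0.00. That was 10.5% in each direction, against 16.2% and 17.8% of all genes. With plain totals 3 were higher and 59 lower. Of these, Wee1, the kinase that holds CDK1 inactive, had the smallest p and rose from 39.2 ± 0.997 to 103 ± 9.82 CPM (SD, n = 3), a log2 change of 1.40 ± 0.06 (edgeR adjusted p = 2.98e-23). It was lower in Taxinine than in BSA by 0.31 ± 0.06 in log2 (edgeR adjusted p = 2.75e-04) and still above Control, at 83.7 ± 1.57 CPM. Zwint, which docks the checkpoint at kinetochores, and Cks2, a CDK1-binding subunit, rose by 0.54 ± 0.04 and 0.37 ± 0.05. The kinetochore genes Nsl1 and Mis12, both of the MIS12 complex, fell by 0.79 and 0.60, and the ubiquitin ligase gene G2e3 fell by 0.50. Each of these calls, rises and falls alike, was also made with plain totals. Plain totals lower nearly all genes in this comparison, so the falls could hardly be lost. In Taxinine against BSA 6 of the 86 were higher and 1 lower (10 and 1 with plain totals). On the TMM scale that was 6.98% and 1.16% of the list, against 2.86% and 4.12% of all genes. In the mitotic genes' range of levels the shares were 4.79% and 7.21%. Spag5, encoding the spindle protein astrin, had the smallest p, at 0.31 ± 0.06 (edgeR adjusted p = 1.72e-04), and its call held in all 9 fits with a library left out. G2e3 and Mis12 were higher by 0.31 ± 0.09 and 0.24 ± 0.08, calls that held in 5 and 4 of those fits. Against Control 32 were higher and 8 lower in Taxinine, with 7 higher and 36 lower under plain totals. On the TMM scale that was 37.2% and 9.30%, against 15.9% and 17.2% of all genes. Of genes in the mitotic genes' range of levels, 26.3% were higher and 19.8% lower. Bora, the activator of Aurora A towards PLK1, rose by 0.48 ± 0.06, a call also made with plain totals. Haspin, the histone H3 kinase that recruits the passenger complex, fell by 0.74. Haspin was called with plain totals too, but these lower nearly all genes, so its fall could hardly be lost.

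Regulators of G2/M transcription, a list of 24, had 3 called higher and 6 lower after antigen (0 and 18 with plain totals). On the TMM scale that was 12.5% and 25%, against 16.2% and 17.8% of all genes. Lin37 and Lin52, subunits of the MuvB core that binds the CHR, fell by 0.58 and 0.41, and the repressors E2f6 and E2f8 fell by 0.50 and 0.28. Lin54, the subunit that contacts the CHR, rose by 0.33 ± 0.06, a call lost with plain totals (0.10). In Taxinine against BSA 3 were higher and 0 lower (5 and 0 with plain totals): E2f3 at 0.39 ± 0.09, Lin52 at 0.31 ± 0.10 and the NF-Y subunit Nfya at 0.17 ± 0.05. These calls held in 8, 3 and 4 of the 9 fits with a library left out. On the TMM scale that was 12.5% higher and 0 lower, against 2.86% and 4.12% of all genes. In the mitotic genes' range of levels the shares were 4.79% and 7.21%. In Taxinine against Control 3 were higher and 3 lower (1 and 13 with plain totals). On the TMM scale that was 12.5% in each direction, against 15.9% and 17.2% of all genes.

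The 53 G1/S and DNA replication genes had 6 called higher and 10 lower after antigen (3 and 40 with plain totals), with a median of -0.01. On the TMM scale that was 11.3% and 18.9%, against 16.2% and 17.8% of all genes. Pcna, the replication clamp, rose from 303 ± 6.93 to 906 ± 26.0 CPM, and Orc1 and Rrm2 rose by 1.63 ± 0.09 and 0.63 ± 0.04. Cyclin E2 (Ccne2), the phosphatase gene Cdc25a and the licensing factor gene Cdc6 fell by 0.64, 0.58 and 0.55. In Taxinine against BSA 1 was higher and 0 lower (3 and 0 with plain totals): Slbp, the histone mRNA binding protein, at 0.43 ± 0.05. On the TMM scale that was 1.89% higher and 0 lower, against 2.86% and 4.12% of all genes. In Taxinine against Control 13 were higher and 8 lower (4 and 28 with plain totals). On the TMM scale that was 24.5% and 15.1%, against 15.9% and 17.2% of all genes. Of genes in the mitotic genes' range of levels, 26.3% were higher and 19.8% lower, so the higher share was not above that of genes at such levels.

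Cell cycle inhibitors and G1 cyclins included changes larger than that of any mitotic gene. Of 22 measured, 10 were called higher and 4 lower after antigen (8 and 9 with plain totals). On the TMM scale that was 45.5% and 18.2%, against 16.2% and 17.8% of all genes. In the mitotic genes' range of levels the shares were 26.1% and 20.0%. Plk3, a stress-induced Polo-like kinase, rose from 67.5 ± 4.84 to 811 ± 42.5 CPM, Btg2, an antiproliferative gene, from 19.8 ± 0.187 to 192 ± 15.2 CPM, and Cdkn1a, encoding the CDK inhibitor p21, from 382 ± 22.1 to 1273 ± 51.9 CPM (SD, n = 3). Cdkn1b, encoding the inhibitor p27, fell by 0.66, and Myc, a driver of growth and G1 progression, fell by 1.42. All 5 of these calls were kept with plain totals, where the falls of Cdkn1b and Myc could hardly be lost. Taxinine differed from BSA in 5 genes of the list, 2 higher and 3 lower (4 and 3 with plain totals): Ccng1 (0.21 ± 0.05) and Ccng2 (0.16 ± 0.05) were higher, and Btg1 (-0.21 ± 0.04), Ccnd3 (-0.27 ± 0.05) and Cdkn2d (-0.27 ± 0.08) were lower. With a library left out, the calls of Ccng1, Btg1 and Ccnd3 held in all 9 fits, that of Cdkn2d in 6 and that of Ccng2 in 3. Cdkn1a, at 0.05 ± 0.04, did not pass in that comparison. On the TMM scale 9.09% of the list were higher and 13.6% lower there, against 2.86% and 4.12% of all genes. In the mitotic genes' range of levels the shares were 4.79% and 7.21%. In Taxinine against Control the counts were again 10 higher and 4 lower (8 and 9 with plain totals). On the TMM scale that was 45.5% and 18.2%, against 15.9% and 17.2% of all genes. In the mitotic genes' range of levels the shares were 26.3% and 19.8%.

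**Figure D5:**
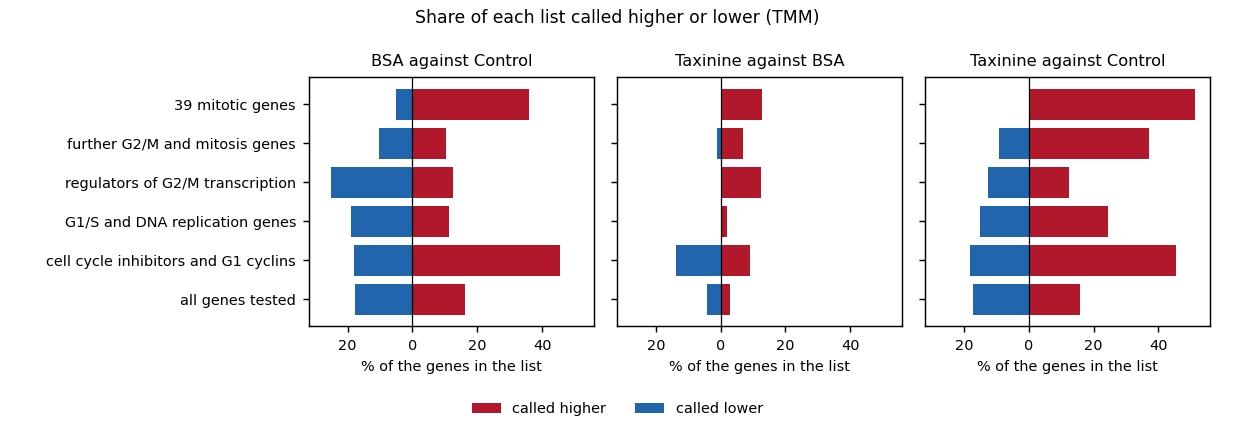
Percentage of genes called higher (red, to the right) or lower (blue, to the left) on the TMM scale in each list (rows) for the 3 comparisons. Genes in the mitotic genes' range of levels, not drawn, had 26.1% and 20.0%, 4.79% and 7.21%, and 26.3% and 19.8%. The 39 mitotic genes have 35.9% called higher and 5.13% lower after antigen, 12.8% and 0 in Taxinine against BSA, and 51.3% and 0 in Taxinine against Control, and with plain library totals the higher calls of the first and last comparison shrink to 1 and 6 genes.

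Overlapping genes limit some of these values. Of the 39 genes, 8 overlap a protein-coding gene on the opposite strand, and 7 of these neighbours are in the table. For Ccna2 and Exosc9, Kif4 and Pdzd11, and Prc1 and Rccd1, the neighbour was not called in BSA against Control or Taxinine against BSA. Kif20a and Cdc23 overlap, and Cdc23, itself a subunit of the anaphase-promoting complex, fell by 0.40 after antigen while Kif20a stood at 0.02. The neighbours of Nusap1 and Cdca8, Oip5 and 9930104L06Rik, fell by 0.36 and 0.38 after antigen. In Taxinine against Control Pdzd11, Cdc23, Oip5 and 9930104L06Rik were called lower, at -0.24, -0.30, -0.36 and -0.52. Kif4 and Kif20a, which overlap Pdzd11 and Cdc23, were called higher there. Exosc9, Elovl1 and Rccd1 were not called in that comparison. The library kit marks strand, but if the counting did not use it, reads from such pairs cannot be told apart.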

How the data were processed

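Transcripts of 9 libraries in 3 groups were analysed. The authors deposited whole-number counts per gene under a label that names TMM normalisation. They also deposited a log2 table that equals log2 of CPM plus 1 with plain totals of these counts, to within 5e-05. Library totals of the counts ranged from 8975371 to 14116976, and the counts were treated here as unscaled. Whether a scaling had already been applied to them was not tested. Per the submitters' processing notes, STAR 2.7.0f, limma 3.11 and the builds mm10 and GRCm38 were used; which program counted reads, with which annotation and strand setting, is not stated in the sources used here. Counts were tested with edgeR 4.0.16 (quasi-likelihood test, TMM factors, 1 fit over 9 libraries, Benjamini-Hochberg adjustment over 15109 genes, call at an adjusted p under 0.05), in R 4.3.3. The SE is the log2 fold change divided by the square root of the F statistic. Coordinates and exon lengths come from GENCODE M21, which holds 15106 of the identifiers. The mitotic genes and all lists were chosen with earlier results of these data known. Values per library are given for the 10 genes with the smallest p after antigen, the largest rise and fall of each comparison and for Mki67, Ccnb1, Cdk1, Plk1, Aurkb and Top2a. Promoters are printed for the 5 genes with a CHR nearest the start site. Other lists name up to 6 called genes with the smallest p per comparison. Alternatives were total count scaling, RLE, upper quartile and median factors, DESeq2 1.42.0, limma 3.58.1 on the deposited log2 values and with a prior count of 0.5, filterByExpr, 2 groups in the fit, a replicate block and leaving out each library. In simulated data for BSA against Control with 15109 genes, 25, 44, 50 and 50 of 50 genes changed by log2 0.25, 0.5, 1 and 2 were recovered. There 8 unchanged genes were called. The simulation held far fewer changed genes than the data, with rises and falls balanced, so it does not bear on the choice of scaling.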

Additional observations from a re-analysis of the deposited data

How the results depend on the processing

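Scaling to plain library totals moved the median of all genes to -0.23 in BSA against Control, -0.21 in Taxinine against Control and 0.03 in Taxinine against BSA. The share of higher calls among all calls in BSA against Control was 13.6%, beside 47.6% with TMM factors, and 3 of 16, 5 of 5 and 6 of 20 calls of the mitotic genes were kept in direction in BSA against Control, Taxinine against BSA and Taxinine against Control. Under both scalings 26, 35 and 32 of the 39 genes lay above the median of all genes in these comparisons. Rescaling moves all genes by nearly the same amount, so these numbers could hardly differ and are no check on the result. For the same reason falls called against Control, and rises called in Taxinine against BSA, could hardly be lost with plain totals. With total count scaling, limma on the deposited log2 values and limma with a prior count of 0.5, all of which use plain totals, 1 gene was called higher and 22 lower in BSA against Control, and 6 higher and 13 lower in Taxinine against Control. In Taxinine against BSA 9, 12 and 11 were called higher. The median log2 change in BSA against Control was -0.16, -0.15 and -0.16, and that in Taxinine against Control was -0.03 with each. On the deposited values the mitotic median exceeded that of all genes by 0.03 and 0.14 in these comparisons. DESeq2 called 1 lower in BSA against Control and 3 higher in Taxinine against BSA, and upper quartile factors gave a median of 0.13 in Taxinine against Control.

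Leaving out 1 library at a time gave 10 to 14 higher and 1 to 3 lower calls in BSA against Control, with medians of 0.06 to 0.11, which lay 0.07 to 0.11 above all genes. In Taxinine against BSA it gave 1 to 7 higher and 0 lower calls. In Taxinine against Control it gave 18 to 22 higher and 0 to 1 lower, the latter without Control replicate 1. Same-numbered libraries of different groups correlated at -0.19 to 0.10 in their deviations from the group means. Differently numbered libraries correlated at -0.19 to 0.21, so no pairing by number was seen. Such values cannot tell whether libraries shared mice or cultures. A fit with the replicate block called 14 higher and 2 lower, 5 higher and 0 lower, and 21 higher and 0 lower in the 3 comparisons.

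With the 3 plain-total settings 19 genes that were called under either scaling changed sign in BSA against Control: the values were the same to 2 decimals for Ccna2 (-0.07), Ccnb2 (-0.17), Ube2c (-0.04), Cdca8 (-0.18), Kif23 (-0.06), Kif4 (-0.04), Hmmr (-0.02), Ect2 (-0.06), Racgap1 (-0.13), Mki67 (-0.19) and Top2a (-0.13), and with total counts, the deposited values and the prior count in turn they were -0.03, -0.02 and -0.02 for Ccnb1, -0.01, -0.0048 and -0.01 for Aurka, -0.17, -0.16 and -0.17 for Bub1, -0.04, -0.05 and -0.05 for Kif11, -0.16, -0.15 and -0.16 for Kif15, -0.21, -0.20 and -0.20 for Kif20a, -0.0033, -0.0026 and -0.0026 for Tpx2 and -0.20, -0.20 and -0.21 for Anln. In Taxinine against Control 10 such genes changed sign: the values were the same to 2 decimals for Aurkb (-0.18), Mad2l1 (-0.17), Cdca3 (-0.19), Anln (-0.01) and Racgap1 (-0.05), and with total counts, the deposited values and the prior count in turn they were -0.19, -0.18 and -0.19 for Ccnb2, -0.0033, -0.01 and -0.01 for Cdk1, -0.18, -0.17 and -0.18 for Ube2c, -0.19, -0.19 and -0.20 for Ndc80 and -0.0042, -0.0039 and -0.0039 for Top2a. Between TMM and total count scaling only the library factors differ. The median of all genes moved with them from -0.00 to -0.23 in BSA against Control and from -0.01 to -0.21 in Taxinine against Control. Genes with small changes therefore crossed 0. Which scaling is nearer to RNA per cell was not tested.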
